A study of Rattus norvegicus with 6 samples.

Results

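The genes described here encode the core of the transforming growth factor beta (TGF-beta) pathway, namely the ligands Tgfb1, Tgfb2 and Tgfb3, the receptors Tgfbr1, Tgfbr2 and Tgfbr3, and the signal carriers Smad2, Smad3, Smad4 and Smad7. They were measured in left ventricle from 3 normal and 3 diabetic rats, with 1 single-colour Affymetrix array per animal. The members were every probe set that the array's annotation names for 1 of these 10 genes, which gave 16 of the 15866 non-control probe sets. The annotation used here named 9 of the 10 genes, out of 10411 genes named on the array, and Tgfbr2 was not analysed here. Of the 16 member probe sets, 11 had a mean log2 signal above the 40th percentile of all probe sets and were tested, so that each of the 9 genes had at least 1 tested probe set. The other 5 lay below that level, and their values are given without a call. Both groups are described only as normal or diabetic heart. The labels used here leave out how diabetes was brought about, how long it lasted, and the strain, sex and age of the rats.

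TGF-beta ligands are secreted in a latent form and are held in the extracellular matrix until they are released. The free ligand joins the type II receptor Tgfbr2 to the type I receptor Tgfbr1, a kinase that phosphorylates Smad2 and Smad3, and these bind Smad4 and enter the nucleus, where they switch genes on or off. Smad7 is induced by the pathway and shuts the receptor down. In the heart the pathway is best known for driving fibroblasts to make collagen, and it acts in cardiomyocytes and vessels as well. The arrays measured transcripts only, and neither ligand release nor Smad phosphorylation is visible in them.

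Of the 11 tested member probe sets, 1 changed, that for Smad3, which was 1.81-fold higher in diabetic hearts by mean signal. A probe set is called changed where its p in limma's moderated linear model, adjusted by Benjamini-Hochberg over all 9519 tested probe sets, was under 0.05. The share of all tested probe sets that changed was 2.88% (274 of 9519), with 1.5% higher and 1.38% lower, and 1 of 11 is 9.09%. At an adjusted p under 0.1, 3 of the 11 passed (Smad3, Tgfbr1 and Smad4), against 7.08% of all. No tested ligand or receptor probe set passed at 0.05. The groups did not overlap at 6 of the 11, with every diabetic heart above every normal heart at 4 (Smad3, Smad4, Smad7 and Tgfbr3) and below at 2 (Tgfbr1 and Tgfb3), while groups did not overlap at 25.7% of all tested probe sets (12.1% with diabetic hearts higher and 13.6% with them lower). An unadjusted p under 0.05 was reached by 5 of the 11 and by 19.9% of all. The median log2 difference, diabetic minus normal, was 0.24 over the 11 and -0.01 over all tested probe sets. Differences are on the scale of log2(signal + 16), which understates the change of dim genes, and signals of different probe sets are not compared with each other, because probes differ in brightness.

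**Figure D1:**
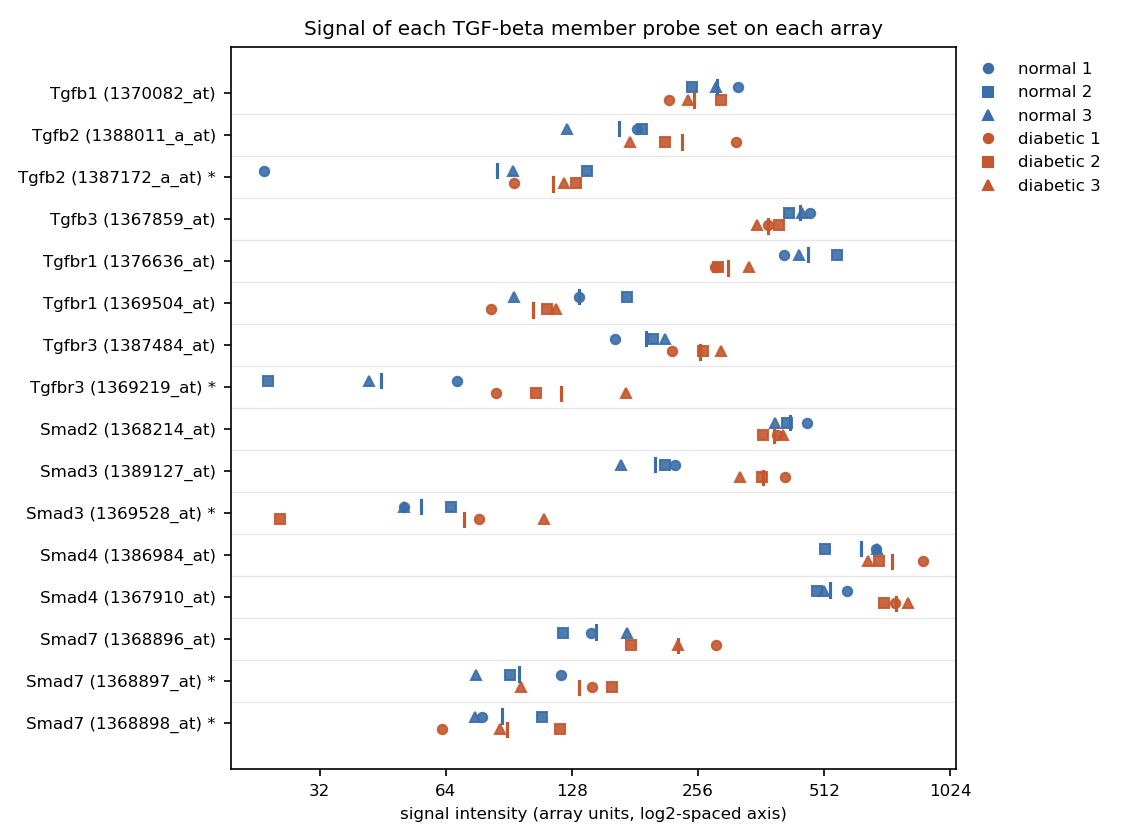
Signal intensity in array units (log2-spaced horizontal axis) of each of the 16 member probe sets, with 1 point per heart (blue normal, orange diabetic, point shape giving the replicate number) and a short vertical bar at each group mean; an asterisk marks the 5 probe sets that were too dim to test. The 3 diabetic hearts lie right of all normal hearts at the brighter Smad3 probe set (322.7 to 411.7 against 167.7 to 224.9) and left of them at the brighter Tgfbr1 probe set (280.6 to 338.1 against 411.5 to 548.6).

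The promoter sequences of 3 genes are shown, and they are a selection that does not follow the order of the test results. Of the 3, only Smad3 was called changed. Smad7 had a larger limma adjusted p (0.145) than the dimmer Smad4 probe set (0.0927), and Smad4 is not shown. In diabetic hearts Smad3 and Smad7 were above, and Tgfbr1 below, every normal heart at 1 probe set. The groups were also apart at a tested probe set for Smad4 and Tgfbr3 (diabetic higher) and Tgfb3 (diabetic lower), whose sequences are not shown. Each line holds the 250 bases before the start of the gene, 5' to 3' on the gene's own strand, from RefSeq on build GRCr8. The windows are chr8:73132325-73132574 on the minus strand for Smad3, chr18:71263258-71263507 on the plus strand for Smad7 and chr5:66449148-66449397 on the plus strand for Tgfbr1. Capitals mark GGGCGG, the GC box bound by Sp1, in either orientation, and GGCGCC, a palindrome of the GC-rich kind that Smad3 and Smad4 can bind.
Smad3: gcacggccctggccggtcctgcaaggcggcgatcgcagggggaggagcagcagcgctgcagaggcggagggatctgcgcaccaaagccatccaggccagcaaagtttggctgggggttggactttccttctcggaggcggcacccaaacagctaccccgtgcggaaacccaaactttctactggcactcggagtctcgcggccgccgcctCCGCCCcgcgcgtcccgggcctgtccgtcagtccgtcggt
Smad7: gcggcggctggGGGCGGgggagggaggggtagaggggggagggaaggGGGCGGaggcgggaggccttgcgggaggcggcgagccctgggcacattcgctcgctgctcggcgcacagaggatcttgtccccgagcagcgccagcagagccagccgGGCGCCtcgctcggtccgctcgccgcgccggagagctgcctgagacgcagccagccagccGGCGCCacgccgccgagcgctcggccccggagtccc
Tgfbr1: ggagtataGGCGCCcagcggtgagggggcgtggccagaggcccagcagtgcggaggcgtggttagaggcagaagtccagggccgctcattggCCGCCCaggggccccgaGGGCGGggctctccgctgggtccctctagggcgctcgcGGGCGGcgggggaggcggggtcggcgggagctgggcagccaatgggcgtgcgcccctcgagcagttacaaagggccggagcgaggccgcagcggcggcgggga

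Smad7 held 2 copies of each motif, Tgfbr1 3 of GGGCGG and 1 of GGCGCC, and Smad3 1 of GGGCGG. Both strands were searched, and the 2 motifs can overlap each other. All 10 genes matched the RefSeq table with 11 windows, since Smad2 has 2 entries. The 2 Smad2 windows overlap and share a copy of GGGCGG. Each held both motifs, so Smad2 is counted 2 times in the window counts of each. GGGCGG was found in 7 of the 11 windows and in 30.5% of all 33469 windows of this length, and GGCGCC in 5 of the 11 and in 8.69% of all. GC content was 68.4% for Smad3, 78.0% for Smad7 and 75.6% for Tgfbr1, against a median of 51.2% over all windows. Among the windows not shown, it was 30.8% for Smad4, 48.8% for Tgfb3 and 71.2% for Tgfbr3. The Smad4 and Tgfb3 windows held neither GGGCGG nor GGCGCC, and the Tgfbr3 window held 1 of each. Whether the RefSeq start of each gene is the one used in heart was not checked. The Smad4 window ends in a run of c and t followed by ag, and it may not be promoter sequence. The palindromic Smad box GTCTAGAC, in 0.173% of all windows, and CAGACA, in 17.2%, were in none of the 11. A match is a run of letters and was not tested for binding.

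Among the ligands, none of the 3 tested probe sets passed, and none had an unadjusted p under 0.05. Tgfb1, the isoform most studied in cardiac fibrosis, had signals of 319.4, 247.9 and 282.3 in normal hearts and 218.4, 290.0 and 242.8 in diabetic hearts. The groups overlapped, with means of 283 ± 35.8 and 250.4 ± 36.4 (SD, n = 3 per group). The log2 difference was -0.17 ± 0.16 (SE), with a 95% interval from -0.54 to 0.20 and a limma adjusted p of 0.621. The interval leaves room for a fall of up to 0.54 or a rise of up to 0.20 on the log2 scale, so a change of 2-fold (1 on that scale) in Tgfb1 transcript lies outside it.

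Tgfb3, which like the other isoforms signals through the same receptors, was at 472.2, 421.7 and 452.4 in normal and 375.0, 400.3 and 353.7 in diabetic hearts. Each diabetic heart lay below each normal heart, yet the distance was small, with means of 449 ± 25.4 and 376 ± 23.3 and a log2 difference of -0.24 ± 0.14 (interval -0.56 to 0.07, limma adjusted p = 0.369). Tgfb2, a ligand that needs the co-receptor Tgfbr3 for strong receptor binding, had 1 tested probe set. There the signals were 183.3, 188.1 and 124.4 in normal and 314.8, 213.0 and 176.2 in diabetic hearts. Diabetic 1 stood high and diabetic 3 fell within the normal range, and the log2 difference of 0.45 ± 0.23 did not pass (interval -0.08 to 0.98, limma adjusted p = 0.325). The Tgfb2 difference was 0.28 without normal 3, the lowest array, and 0.23 without diabetic 1, the highest. The dimmer Tgfb2 probe set, below the filter, ran from 23.5 to 138.7 in normal and from 93.1 to 130.9 in diabetic hearts.

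The receptors differed in sign. Tgfbr1, the type I receptor kinase, had signals of 411.5, 548.6 and 446.8 in normal hearts and 280.6, 285.8 and 338.1 in diabetic hearts at its brighter probe set. All diabetic values lay below all normal ones, and the mean was 0.643 times the normal one, at 302 ± 31.8 against 469 ± 71.2. The log2 difference of -0.61 ± 0.16 (interval -0.97 to -0.24) narrowly missed the threshold with a limma adjusted p of 0.0854. It stayed between -0.69 and -0.49 with each array left out, at adjusted p from 0.109 to 0.204, and reached 0.0437 when only probe sets above the 60th percentile were tested. The second Tgfbr1 probe set was dim, just inside the filter, and the groups overlapped there at 93.0 to 173.0 in normal and 81.9 to 117.1 in diabetic hearts. Its log2 difference was -0.29 ± 0.22 (interval -0.80 to 0.21, limma adjusted p = 0.509).

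Tgfbr3, or betaglycan, is the co-receptor that presents ligand to the signalling receptors and has no kinase of its own. At its tested probe set the signals were 162.4, 199.5 and 213.9 in normal and 222.1, 262.4 and 290.6 in diabetic hearts. The groups did not overlap, although the highest normal and the lowest diabetic heart were close. The log2 difference was 0.40 ± 0.17 (interval 0.03 to 0.78) and the limma adjusted p was 0.220. The other Tgfbr3 probe set fell below the filter, at 68.1, 24.1 and 41.9 in normal and 84.2, 104.8 and 172.6 in diabetic hearts. There, too, each diabetic heart was above each normal one, and in a fit with no filter the log2 difference was 1.18 ± 0.35 with a limma adjusted p of 0.264. No detection call was used here to tell signals as low as 24.1 from background, so the size of that difference is uncertain.

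Of the 5 tested Smad probe sets, 1 rose and none fell, and 4 of the 5 had positive log2 differences. Smad3, which carries the receptor's signal to DNA and is the Smad most tied to collagen genes, was at 224.9, 213.1 and 167.7 in normal hearts. In diabetic hearts it was at 411.7, 362.8 and 322.7. The lowest diabetic heart was well above the highest normal heart, and the means were 202 ± 30.2 and 366 ± 44.6. Smad3 rose by 0.81 ± 0.17 on the log2 scale (interval 0.44 to 1.19, limma adjusted p = 0.0396). The call was marginal: the difference held between 0.69 and 0.90 with any 1 array left out, but the adjusted p then ran from 0.0623 (without normal 1) to 0.131 (without normal 3), past the threshold in all 6 fits. Without the filter on dim probe sets it was 0.171. The second Smad3 probe set lay below the filter, with 50.9, 65.8 and 50.9 in normal and 76.7, 25.7 and 109.5 in diabetic hearts. It showed no separation of the groups, with a log2 difference of 0.14 ± 0.40 in the fit with no filter (interval -0.82 to 1.09).

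Smad2, the other Smad that the receptor activates, was at 465.8, 417.4 and 390.4 in normal and 395.0, 364.7 and 408.1 in diabetic hearts. The ranges overlapped, and the log2 difference was -0.12 ± 0.14 (interval -0.44 to 0.20, limma adjusted p = 0.703). The intervals of Smad2 and Smad3 do not overlap, but the difference between these genes was not itself tested.

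Smad4, the partner shared by the TGF-beta and BMP branches, was measured by 2 tested probe sets. At the dimmer of them the signals were 578.9, 492.0 and 512.1 in normal and 754.3, 712.6 and 812.6 in diabetic hearts. Diabetic hearts were all higher, with a mean 1.44 times the normal one, and the log2 difference was 0.51 ± 0.14 (interval 0.19 to 0.84, limma adjusted p = 0.0927). As with Tgfbr1, it passed only when probe sets above the 60th percentile alone were tested (adjusted p = 0.0481). At the brighter one the groups overlapped, at 679.7, 513.1 and 684.4 in normal and 881.8, 693.1 and 650.5 in diabetic hearts. There the log2 difference was 0.24 ± 0.18 (interval -0.17 to 0.65, limma adjusted p = 0.510).

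Smad7, the inhibitory Smad that feeds back on the receptor, had 1 tested probe set, with signals of 142.4, 121.8 and 173.4 in normal and 281.8, 177.0 and 229.7 in diabetic hearts. The groups were only just apart, since diabetic 2 exceeded normal 3 by a few units. The log2 difference was 0.59 ± 0.20 (interval 0.14 to 1.04, limma adjusted p = 0.145), and it ranged from 0.44 without diabetic 1 to 0.75 without diabetic 2. Both other Smad7 probe sets lay below the filter and overlapped between groups. They ran from 75.5 to 120.4 and from 75.2 to 108.6 in normal hearts, and from 96.6 to 159.1 and from 62.7 to 119.7 in diabetic hearts. Their log2 differences in the fit with no filter were 0.41 ± 0.24 and 0.01 ± 0.25.

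**Figure D2:**
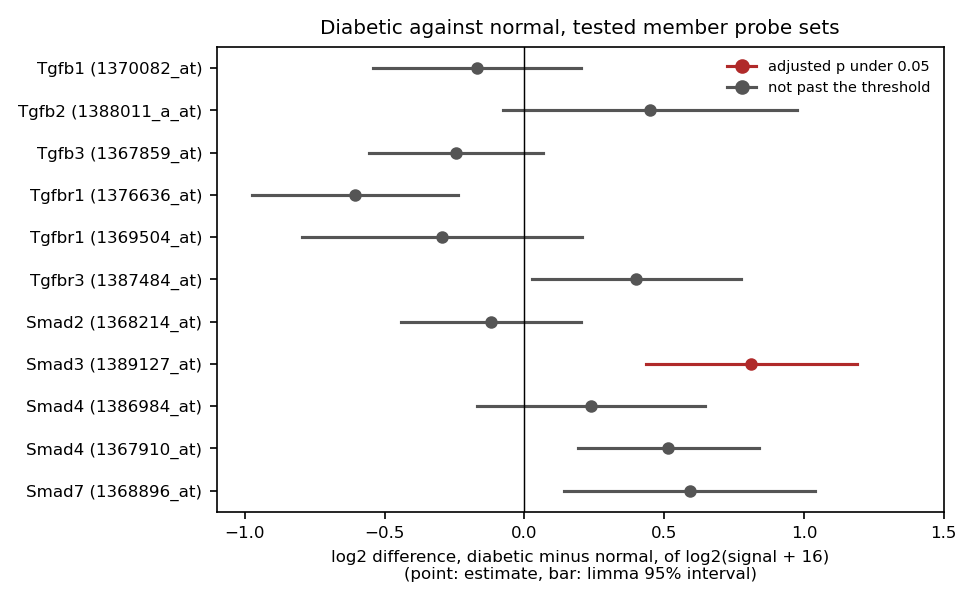
Log2 difference, diabetic minus normal, on the log2(signal + 16) scale for the 11 tested member probe sets, with a point for the estimate and a bar for limma's 95% interval, which is not adjusted for the number of probe sets. The Smad3 probe set (0.81, red) is the 1 that passed an adjusted p of 0.05, and 5 of the 11 intervals leave out 0.

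Cell make-up bears on these genes, since fibroblasts, vessel cells and cardiomyocytes all use the pathway, and in whole ventricle fewer cells of a type and less RNA per cell cannot be told apart. Ventricular cardiomyocyte markers (7 of 8 on the array) were bright in every heart, with summed signals of 188651 to 234767 in normal and 171128 to 228025 in diabetic hearts. Over the brightest probe set of each of 10 fibroblast markers, signals summed to 37588 to 41665 (normal) and 25262 to 25488 (diabetic). Of 9 tested markers 4 fell (Lum, Col1a1, Col1a2 and Col3a1) and none rose, while 1.4% of all genes fell. The largest fall within the summed signal was that of Col3a1, from a mean of 10058 in normal to 2579 in diabetic hearts. The other tested ones overlapped between groups and did not pass. They were Dcn (log2 -0.01), Pdgfra (-0.24), Tcf21 (-0.29), Dpt (-0.36) and Mfap5 (-0.44). Smooth muscle and pericyte markers (8 of 8) summed to 4187 to 5209 and 3258 to 4014, with none past the threshold. Of 7 tested, 2 had an unadjusted p under 0.05, against 19.9% of all tested probe sets. Endothelial markers (6 of 8) summed to 5476 to 6146 and 5436 to 6362, with 1 of 6 tested (Tie1, log2 -0.94) lower at the threshold. The others went both ways and did not pass. Pecam1 was at 0.68 with every diabetic heart above every normal one, and Flt1 (0.33), Vwf (0.26), Eng (0.07) and Kdr (-0.04) overlapped between groups. Macrophage and other leukocyte markers (8 of 10) summed to 3512 to 4938 and 4232 to 6460. Platelet markers (3 of 4) summed to 782 to 1031 and 504 to 835, red cell markers (2 of 3) to 19439 to 25746 and 16011 to 24859, and adipocyte markers (3 of 4) to 212 to 266 and 253 to 298. Atrial markers (4 of 4), which include the stress gene Nppa, summed to 3871 to 5176 and 20566 to 30669. That difference lay in Nppa, at a mean of 3671 in normal and 25244 in diabetic hearts, while Myl7 (358 and 309), Myl4 (235 and 311) and Sln (181 and 361) overlapped between groups and did not pass. No detection call was used for the markers, and the part of these shifts in the member differences was not tested.

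Outside the 10 members, 5 lists of pathway genes were followed, 146 genes in all, of which 93 were tested, each at its brightest tested probe set. Of the 93, 3 rose and 4 fell, which is 7.53%, against 2.94% of all 6978 genes tested in the same way (1.53% higher and 1.4% lower). The median log2 difference of the 93 was -0.01, as it was over all 6978 genes. The groups did not overlap at 33 of the 93 (35.5%, against 26.3% of all genes). The lists were drawn up with earlier results of these data known. Of the 4 that fell, 3 were collagens already known to be low, so these shares are a description and not a test of the pathway.

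**Figure D3:**
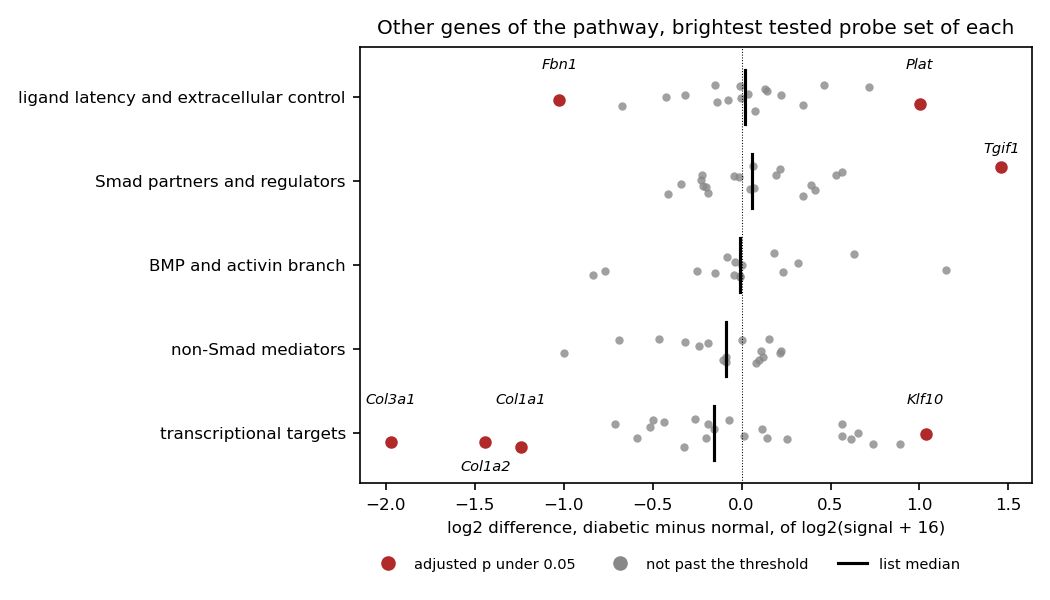
Log2 difference, diabetic minus normal, on the log2(signal + 16) scale for the tested genes of 5 pathway lists, with 1 point per gene, a black bar at each list's median and red for an adjusted p under 0.05. List medians lie between -0.16 and 0.06, and the 3 collagens of the target list lie farthest left, between -1.97 and -1.24.

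Of 18 tested genes that hold, release or bind the ligand outside the cell, 1 rose and 1 fell (median 0.02). Plat, tissue plasminogen activator, a protease that makes plasmin, rose from 1102.1, 1053.6 and 802.3 in normal to 2248.4, 2033.4 and 1679.0 in diabetic hearts. Every diabetic heart was above every normal one, by 1.00 ± 0.18 on the log2 scale (limma adjusted p = 0.0243). Fbn1, the microfibril protein fibrillin-1 to which latent TGF-beta complexes are anchored, fell from 864.6, 1014.9 and 1354.1 to 430.4, 537.1 and 582.9. The log2 difference was -1.02 ± 0.20 (limma adjusted p = 0.0327), and at its second probe set it was -1.53 (adjusted p = 0.00836). Ltbp4, a latent TGF-beta binding protein, was at -0.67 (adjusted p = 0.127) and Mmp14, a membrane-bound matrix protease, at 0.72 (adjusted p = 0.119), and neither passed. The matrix proteoglycan Dcn, which can bind the ligand, was at -0.01 ± 0.16 and the co-receptor Eng at 0.07 ± 0.15. The Plat call was lost without normal 2 or 3 or diabetic 1 or 2 (adjusted p at most 0.0829), and the Fbn1 call was lost whichever array other than normal 1 was left out (at most 0.0990).

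Among 20 tested Smad partners and regulators, 1 rose and none fell (median 0.06). Tgif1, a nuclear corepressor that binds activated Smads, rose from 184.0, 116.1 and 71.9 in normal to 323.6, 271.8 and 480.1 in diabetic hearts. Its groups were clearly apart, with a log2 difference of 1.46 ± 0.31 (limma adjusted p = 0.0417). The call was lost without normal 2 or 3 or any 1 diabetic array (at most 0.119) and with a pseudocount of 1 (0.0553). Next by p in this list were Wwp2, a ubiquitin ligase (log2 0.53, adjusted p = 0.0979), Hgs, an endosomal sorting protein (0.57, adjusted p = 0.149), and Dab2, an adaptor (-0.42, adjusted p = 0.166). Smurf1 and Smurf2, ubiquitin ligases that work with Smad7 on the receptor, were at 0.20 (adjusted p = 0.479) and 0.06 (adjusted p = 0.914).

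The BMP and activin branch had 15 tested genes and no call (median -0.01). An unadjusted p under 0.05 was reached by 4 of the 15, against 19.9% of all tested probe sets. Those 4 were Inha, the inhibin alpha subunit (log2 -0.84, adjusted p = 0.0635), Fstl1, a secreted follistatin-like protein (-0.77, adjusted p = 0.0794), Inhbb, an activin subunit (1.15, adjusted p = 0.112), and Smad6, the inhibitory Smad of the BMP branch (0.63, adjusted p = 0.167). The other tested Fstl1 probe sets were at -0.66 (limma adjusted p = 0.114) and, with overlapping groups, at -0.27 (limma adjusted p = 0.389). Smad1 and Smad5, which carry the BMP signal, were at -0.04 and 0.00. Of 17 non-Smad mediators none passed (median -0.09). Here 3 of the 17 had an unadjusted p under 0.05, against the same 19.9% of all. These were Akt1, a survival kinase (-0.69, adjusted p = 0.0848), the p38 activator Map2k6 (-0.998, adjusted p = 0.0979) and the JNK gene Mapk8 (-0.47, adjusted p = 0.156). Tab2, which works with the TGF-beta activated kinase Map3k7, followed at -0.32 (adjusted p = 0.338). A second Akt1 probe set was at -0.05 (adjusted p = 0.908), so the Akt1 probe sets disagreed.

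An unadjusted p under 0.05 was reached by 11 of 25 tested transcriptional targets, against 19.9% of all tested probe sets. Of the 25, 1 rose and 3 fell, and the list's median was -0.16. The 3 that fell were the fibrillar collagens Col3a1, Col1a2 and Col1a1, known from earlier results on these data to be low and also in the fibroblast marker list, so they add no independent direction. Col3a1 was at 11144.7, 9399.0 and 9629.3 in normal and 3144.8, 2484.2 and 2107.0 in diabetic hearts. The Col1a1 call was lost without normal 1 or 3 or diabetic 3 (adjusted p at most 0.0704). Klf10, a zinc finger factor first found as an early TGF-beta response gene, rose from 578.3, 479.4 and 303.2 to 840.2, 999.3 and 913.5. All diabetic hearts were above all normal ones for Klf10, with a log2 difference of 1.03 ± 0.23, at the edge of the threshold (limma adjusted p = 0.0488). It was lost without normal 2 or 3 or any 1 diabetic array (at most 0.135), with a pseudocount of 1 (0.0594) and with the filter set on mean linear signal (0.0519). Among targets that did not pass, Ccn2, connective tissue growth factor, was at 1865 ± 341 in normal and 2935 ± 1260 in diabetic hearts (log2 0.57 ± 0.31, limma adjusted p = 0.346). Fn1, fibronectin, was at -0.07 (adjusted p = 0.883), Acta2, smooth muscle actin, at -0.19 (adjusted p = 0.622), and Lox, the collagen crosslinking oxidase, at 0.74 (adjusted p = 0.0937). Lox had an unadjusted p under 0.05, as did the remaining targets of that count, none of which passed. Of these, Tsc22d1 (-0.59), Sparc (-0.52), Timp1 (-0.50) and Plod2 (-0.43) were lower, and Id1 (0.89) and Edn1 (0.66) were higher. Their limma adjusted p ran from 0.103 (Id1) to 0.209 (Timp1).

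Genes with the most similar profiles were found for the member of each role with the smallest p, by the mean absolute distance of centred log2 signals over the 6 arrays, among 8098 or 8099 probe sets of other named genes. For Smad3 they were Mxi1, a MYC antagonist (distance 0.05, log2 0.85), Xdh, xanthine dehydrogenase (0.07, log2 0.82), and Polr1a, an RNA polymerase I subunit (0.09, log2 0.72). Mxi1 and Xdh passed the test themselves (limma adjusted p = 0.0275 and 0.0367). For Tgfbr1 they were Vtn, vitronectin (0.07, log2 -0.71, adjusted p = 0.0374), Bckdk, the kinase of branched-chain ketoacid dehydrogenase (0.07, log2 -0.51), and Josd2 (0.07, log2 -0.56). For Tgfb2 they were Prom1 (0.07, log2 0.47), Cadm3 (0.08, log2 0.55) and Gnrh1 (0.08, log2 0.51). With 6 arrays and so many candidates, close profiles are to be found for any probe set, and these names are a description only.

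**Figure D4:**
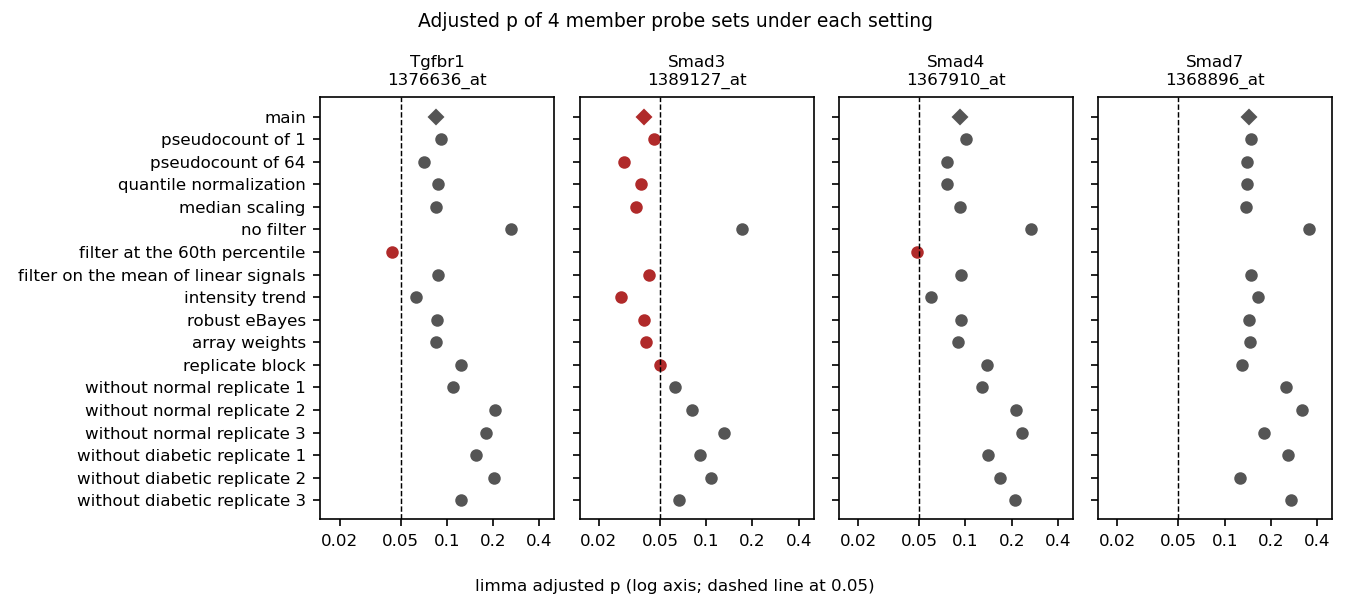
Limma adjusted p (log axis) of 4 member probe sets under the reported setting (diamond) and each alternative (circles), with a dashed line at 0.05 and red for values below it. Smad3 crosses the line in every fit that leaves out 1 array and when no filter is used, Tgfbr1 and Smad4 fall below it only with the filter at the 60th percentile, which leaves out Smad3 and Smad7, and Smad7 stays above it throughout.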

How the data were processed

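For each array the deposited table gave a linear signal intensity for every probe set, and how it was computed is not given in the sources used here. A 2% trimmed mean of the deposited intensity values was 500.2 on every array, so they were used as deposited. Array medians ran from 180.3 to 191.3, and the small number of arrays sets the precision. No detection calls were used. Pairs of arrays correlated at r = 0.967 to 0.974 within groups and 0.937 to 0.959 between them, across probe sets. Gene names are those of the array's annotation, brought up to date by gene number with a RefSeq table (GRCr8). Of 15866 non-control probe sets, 12783 named 1 gene, 312 named more than 1 and 2771 had no name here.

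Signals were turned into log2(value + 16). Probe sets with a mean of these values above the 40th percentile (a signal of about 112.8) were fitted with limma 3.58.1 in R 4.3.3, with group as the only term, two-sided, and adjusted over all 9519. SE and 95% intervals come from that model. An exact permutation test of 3 against 3 cannot go below p = 0.1, so calls rest on limma. On simulated data of 9519 probe sets, 4% of planted log2 changes of 0.5 were recovered, 60% of those of 1, 90% of those of 2 and 98% of those of 3, with 9 false among 135 calls. Changes were planted in only a small share of the simulated probe sets, while 19.9% of those in the data had an unadjusted p under 0.05. These rates can therefore differ from those of the reported fit.

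The members and lists were chosen with earlier results of these data known. Named were all members, every called list gene and the 4 smallest p per list. Some list genes were added after their values were seen (Dcn, Eng, Smurf1, Smurf2, Smad1, Smad5, Ccn2, Fn1, Acta2, Lox, Tsc22d1, Sparc, Timp1, Plod2, Id1, Edn1). The alternatives were other pseudocounts, scalings, filters, variance models, array weights, a replicate block, a threshold of 0.1 and each array left out. Filtering on the mean of linear signals was added after seeing the data. Figures used matplotlib 3.10.9 in Python 3.11.15.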

Additional observations from a re-analysis of the deposited data

How the results depend on the processing

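The count of member probe sets that changed, 1 in the report, was 0 of 16 with no filter (5 of them at an unadjusted p under 0.05), 2 of 5 with the filter at the 60th percentile (Smad4 and Tgfbr1), and 3 of 11 at an adjusted p under 0.1, where 7.08% of all tested probe sets passed. With each array left out it was 0 to 0, with 3 to 6 of the 11 at an unadjusted p under 0.05. The 7 pathway genes became 1 with no filter (Col3a1), 11 with an intensity trend, 13 at an adjusted p under 0.1, and 2 to 6 with each array left out. The 274 calls over all probe sets became 18 with no filter, 437 with the filter at the 60th percentile, 527 with an intensity trend, 674 at an adjusted p under 0.1, and 100 to 202 with each array left out. No log2 difference of a tested member or called pathway gene changed sign under any of these settings. Fits of 5 arrays also have less power, and the cause of the other shifts was not tested.

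Deviations of same-numbered hearts correlated at 0.07, 0.01 and 0.02 for numbers 1, 2 and 3. Hearts of unlike number ran from -0.08 to 0.07. The labels do not say whether the numbers pair the samples, and 3 arrays per group cannot settle it. With the replicate number as a block, 183 probe sets, 1 member probe set (Smad3, adjusted p = 0.0499) and 5 pathway genes passed (not Tgif1, at 0.0739, nor Klf10, at 0.0643).

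Among the limits are the number of arrays and dim signals: 5 of 16 probe sets lay below the filter, and no detection call tells their signal from background. Where probe sets of 1 gene differed, as for Smad3, Smad4 and Smad7, which parts of the transcript they match was not analysed here.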
